A study of Homo sapiens with 18 samples.

Results

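Major histocompatibility complex (MHC) class II proteins show peptides from the endosomal pathway to CD4+ T cells, and 10 genes that switch on this system and load its peptides are described here, of 60609 gene identifiers in the count files. They were taken by name: the class II transactivator CIITA, the DNA-binding RFX subunits RFX5, RFXAP and RFXANK, the invariant chain CD74, the peptide exchange factor chains HLA-DMA and HLA-DMB, its inhibitor's chains HLA-DOA and HLA-DOB, and the lysosomal reductase IFI30. Of the 10, 9 had enough reads to be tested among 20920 genes, and IFI30, with 0 to 4 reads in a library, did not.

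OCI-AML1, an established human acute myeloid leukaemia cell line labelled WT, was profiled by poly(A)-selected RNA-seq after AML874, SEL120-34A or the solvent DMSO. AML874 is known here by its code alone, and SEL120-34A is known to inhibit the Mediator-associated kinases CDK8 and CDK19. Each agent was sampled at 8 h and at 24 h with 3 libraries a group, 18 libraries in 6 groups, all from 1 cell line and with no dose given in the labels. Because the labels do not say that the libraries came from separate cultures, the p-values measure the spread between libraries, which may be technical.

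Class II genes are switched on in a fixed order. The RFX proteins, a CREB family factor and NF-Y sit on the X and Y boxes of class II promoters, and CIITA, which does not bind DNA itself, docks on them and recruits coactivators, so its amount usually sets the output. The CD74 chain then fills the groove of new class II molecules and takes them to the endosome, proteases trim it to a short remnant called CLIP, HLA-DM exchanges CLIP for antigen peptides and HLA-DO restrains HLA-DM. Interferon-gamma is the classical inducer of CIITA outside B cells and dendritic cells, while myeloid leukaemia cells often carry class II constitutively.

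The library labels were checked against marker genes. Of 9 myeloid genes, CD33, SPI1, CEBPA, CSF3R and PTPRC were expressed in every library (lowest 52.4 CPM, the count scaled to library size, for CD33), MPO lay between 4.25 and 37.6 CPM, AZU1 lay between 0.674 and 2.44 CPM, and ANPEP and ELANE stayed under 0.1 CPM throughout. Of 8 B cell genes, MS4A1, EBF1 and CR2 were under 0.1 CPM everywhere and the summed level was 0.812 to 2.07 CPM over the 18 libraries. CD1C and CADM1 of the conventional dendritic cell list and CD3D, CD3E, CD3G, CD2 and CD5 of the T cell list were also under 0.1 CPM in every library. BATF3 of the first list lay between 2.76 and 5.81 CPM and ZBTB46 between 0.17 and 0.64 CPM. CLEC10A, CLEC9A, FCER1A and XCR1 were above 0.1 CPM in some libraries and below 0.48 CPM in all. TRAC of the second list lay between 2.16 and 7.98 CPM. Of the monocyte list, LYZ lay between 151 and 353 CPM and CSF1R between 14.8 and 33.1 CPM. Of the plasmacytoid dendritic cell list, TCF4 lay between 21.4 and 27.5 CPM and IRF7 between 5.85 and 13.9 CPM. In RNA from bulk cultures, fewer cells of a type and less RNA per cell cannot be told apart. Gene-assigned reads ran from 98975944 to 142496541 per library. On the first axis of the spread inside groups, SEL120-34A 24 h replicate 2 (5.35), SEL120-34A 8 h replicate 2 (4.87) and DMSO 8 h replicate 3 (5.11) stood apart at one end in axis score, and AML874 24 h replicate 1 (3.11) came next, close to DMSO 24 h replicate 1 (2.58).

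The promoters of the loading genes are shown because 4 of these 5 genes rose with both compounds by 24 h and the fifth, HLA-DOB, did not pass the test. Each stretch is the 150 bases before the annotated start in RefSeq (GRCh38.p14), read 5′ to 3′ on the gene's own minus strand. Capitals mark CCAAT or its complement ATTGG, the core of the Y box bound by NF-Y, and in HLA-DMB also 10 letters that match the first part of the X box, the site of RFX.
HLA-DMA (chr6:32953098-32953247): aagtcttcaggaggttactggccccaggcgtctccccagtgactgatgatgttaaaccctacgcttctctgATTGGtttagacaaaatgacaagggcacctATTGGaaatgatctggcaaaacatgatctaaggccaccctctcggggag
HLA-DMB (chr6:32941029-32941178): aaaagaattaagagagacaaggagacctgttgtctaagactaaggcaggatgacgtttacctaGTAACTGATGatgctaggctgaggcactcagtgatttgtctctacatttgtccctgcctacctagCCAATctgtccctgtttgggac
HLA-DOA (chr6:33009592-33009741): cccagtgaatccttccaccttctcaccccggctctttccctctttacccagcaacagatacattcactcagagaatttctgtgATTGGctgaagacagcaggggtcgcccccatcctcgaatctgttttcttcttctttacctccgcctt
CD74 (chr5:150412911-150413060): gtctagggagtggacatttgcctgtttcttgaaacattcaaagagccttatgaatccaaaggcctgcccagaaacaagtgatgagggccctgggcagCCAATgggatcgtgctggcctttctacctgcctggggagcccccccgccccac
HLA-DOB (chr6:32817003-32817152): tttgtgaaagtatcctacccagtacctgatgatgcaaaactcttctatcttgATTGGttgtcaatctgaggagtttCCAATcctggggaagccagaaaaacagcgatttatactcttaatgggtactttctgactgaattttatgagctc

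Of the 10 genes, 9 had a promoter window in the RefSeq table, and these 9 have 13 annotated starts. CCAAT on either strand lay within the 150 bases before 6 of the 13 starts, and it is in 23.5% of all 35116 stretches of this length. HLA-DMA carried it at -79 and -49 counted from the start, HLA-DOB at -98 and -74, HLA-DOA at -67, CD74 at -53 and HLA-DMB at -22. The letters of the X1 box pattern were matched in full in HLA-DMB alone, at -87, and are present in 0.353% of all stretches. In HLA-DMB the letters TGACG, a core of CREB family sites that 15.4% of stretches hold, lie just before them at -100 without overlapping. In the full windows, which run from 250 bases before the start to 50 after it, the interferon-gamma activation pattern TTCNNNGAA was in none of the 9 genes and in 7.66% of all windows, and the interferon-stimulated response element (ISRE) pattern was in RFX5 alone and in 3.57% of all windows. The HLA-DOB stretch, whose gene did not pass, holds the Y box core like the others. These are matches of letters and describe the sequence only. The X1 box search allowed no mismatch, so it cannot show that the other genes lack an X box.

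The 10 genes covered a wide range of levels. In TPM, a unit scaled by transcript length and depth that allows genes to be compared, the median over the 18 libraries was 1183 for CD74, 107 for RFXANK, 105 for RFX5, 24.3 for HLA-DMA, 20.9 for CIITA, 14.5 for RFXAP, 8.25 for HLA-DMB, 0.75 for HLA-DOB and 0.735 for HLA-DOA, while IFI30 had a median of 0. CD74 is thus by far the most abundant transcript of the set, and of the tested genes the HLA-DO chains have the lowest medians. In the DMSO libraries at 24 h, the ranges of RFXANK and RFX5 overlapped, as did those of HLA-DOA and HLA-DOB, and the other neighbours in the order did not. With AML874 at 24 h the HLA-DOA level of 2.32 to 2.48 TPM stood clear of HLA-DOB at 0.87 to 1.00 TPM.

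**Figure D1:**
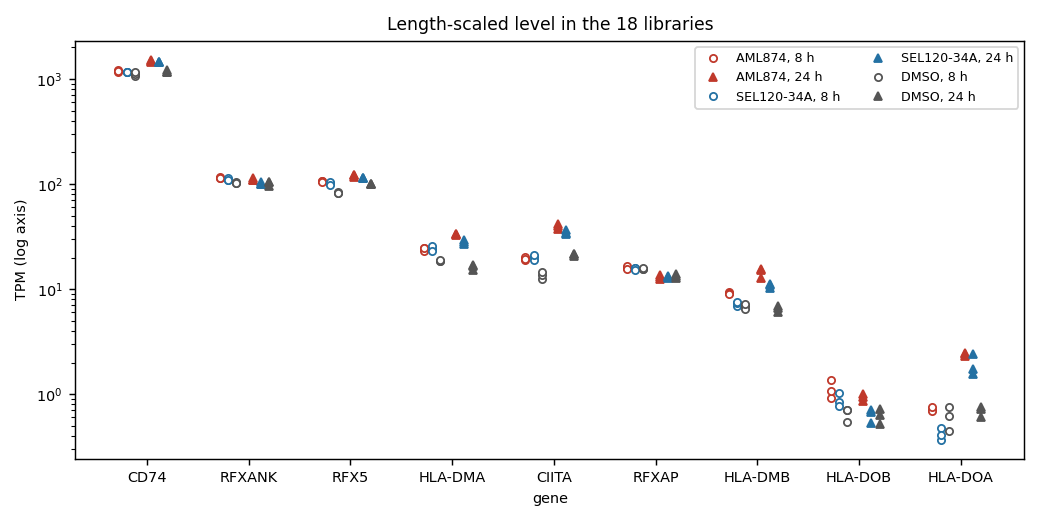
TPM of 9 genes on a log axis, 1 symbol per library, open for 8 h and filled for 24 h, in order of the median. CD74 lies between 1075 and 1528 TPM in every library and HLA-DOA lies between 0.37 and 2.48 TPM.

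CIITA, the transactivator, is on chromosome 16 (GRCh38, 10866222 to 10943021, plus strand) and rose with both compounds at both times. At 8 h it had 82.8, 89.8 and 84.0 CPM with AML874 and 78.5, 78.9 and 81.5 CPM with SEL120-34A, against 60.2, 60.7 and 65.5 CPM with DMSO. At 24 h it had 183, 183 and 171 CPM with AML874 and 151, 163 and 155 CPM with SEL120-34A, against 96.9, 99.9 and 94.3 CPM with DMSO. In CPM no group overlapped another, and the order AML874, SEL120-34A, DMSO was the same at both times. In TPM the 8 h compound groups overlapped, at 19.2 to 20.4 with AML874 and 19.1 to 21.0 with SEL120-34A, against 12.5 to 14.6 with DMSO. With AML874 the log2 fold change was 0.46 ± 0.04 (SE, n = 3 against 3) at 8 h and 0.88 ± 0.04 at 24 h, with adjusted p of 5.75e-11 and 1.82e-17 in edgeR's quasi-likelihood test with Benjamini-Hochberg adjustment over all genes tested. With SEL120-34A it was 0.36 ± 0.04 at 8 h and 0.69 ± 0.04 at 24 h in the same test (adjusted p of 6.08e-09 and 8.40e-15).

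RFX5, the large DNA-binding subunit of RFX (chromosome 1, 151340640 to 151347357, minus strand), showed a smaller rise of about the same size at both times. It had 202, 199.5 and 202 CPM with AML874 and 191, 191 and 189 CPM with SEL120-34A at 8 h, against 166, 162 and 159 CPM with DMSO. At 24 h the values were 217, 226 and 225 CPM with AML874 and 213, 211 and 212 CPM with SEL120-34A, against 185, 183 and 181 CPM with DMSO. Again no group overlapped another at either time in CPM. In TPM the 8 h compound groups overlapped, at 104 to 106 with AML874 and 98.8 to 105 with SEL120-34A. The AML874 log2 fold change was 0.31 ± 0.02 at 8 h and 0.28 ± 0.02 at 24 h, and that of SEL120-34A was 0.23 ± 0.02 at 8 h and 0.21 ± 0.02 at 24 h (edgeR quasi-likelihood, all 4 adjusted p at or below 5.41e-09).

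RFXANK, the ankyrin-repeat subunit of RFX (chromosome 19, 19192229 to 19201869, plus strand), rose with AML874 alone among the compound and DMSO comparisons of the main fit. At 8 h it had 58.7, 58.0 and 60.1 CPM with AML874 and 56.0, 55.3 and 55.6 CPM with SEL120-34A, against 53.7, 55.4 and 53.2 CPM with DMSO. At 24 h it had 57.6, 55.6 and 58.3 CPM with AML874 and 51.0, 50.3 and 52.2 CPM with SEL120-34A, against 53.6, 50.7 and 49.4 CPM with DMSO. In CPM AML874 libraries lay above the DMSO libraries at both times, while SEL120-34A and DMSO libraries overlapped. In TPM at 8 h SEL120-34A libraries, at 109 to 114, also lay above DMSO libraries, at 103 to 104. When library totals alone set the scale, SEL120-34A passed at 8 h, at 0.11 (adjusted p = 0.00316, edgeR). The AML874 log2 fold change was 0.12 ± 0.03 at 8 h (adjusted p = 0.00177, edgeR) and 0.16 ± 0.03 at 24 h (adjusted p = 7.07e-05, edgeR). The AML874 minus SEL120-34A difference at 24 h was 0.16 ± 0.03 on the log2 scale (adjusted p = 0.000278, edgeR).

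RFXAP, the third RFX subunit (chromosome 13, 36819224 to 36829104, plus strand), did not pass the test in any comparison with a compound. Its values at 8 h were 28.2 to 29.6 CPM with AML874 and 26.8 to 28.2 CPM with SEL120-34A, against 28.2 to 28.8 CPM with DMSO. At 24 h they were 23.8 to 24.8 CPM with AML874 and 23.3 to 24.2 CPM with SEL120-34A, against 22.8 to 24.7 CPM with DMSO. The 95% intervals of its 4 log2 fold changes against DMSO lay between -0.11 and 0.09. The 3 subunits of RFX, which work as 1 complex, thus had fold changes of unequal size.

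**Figure D2:**
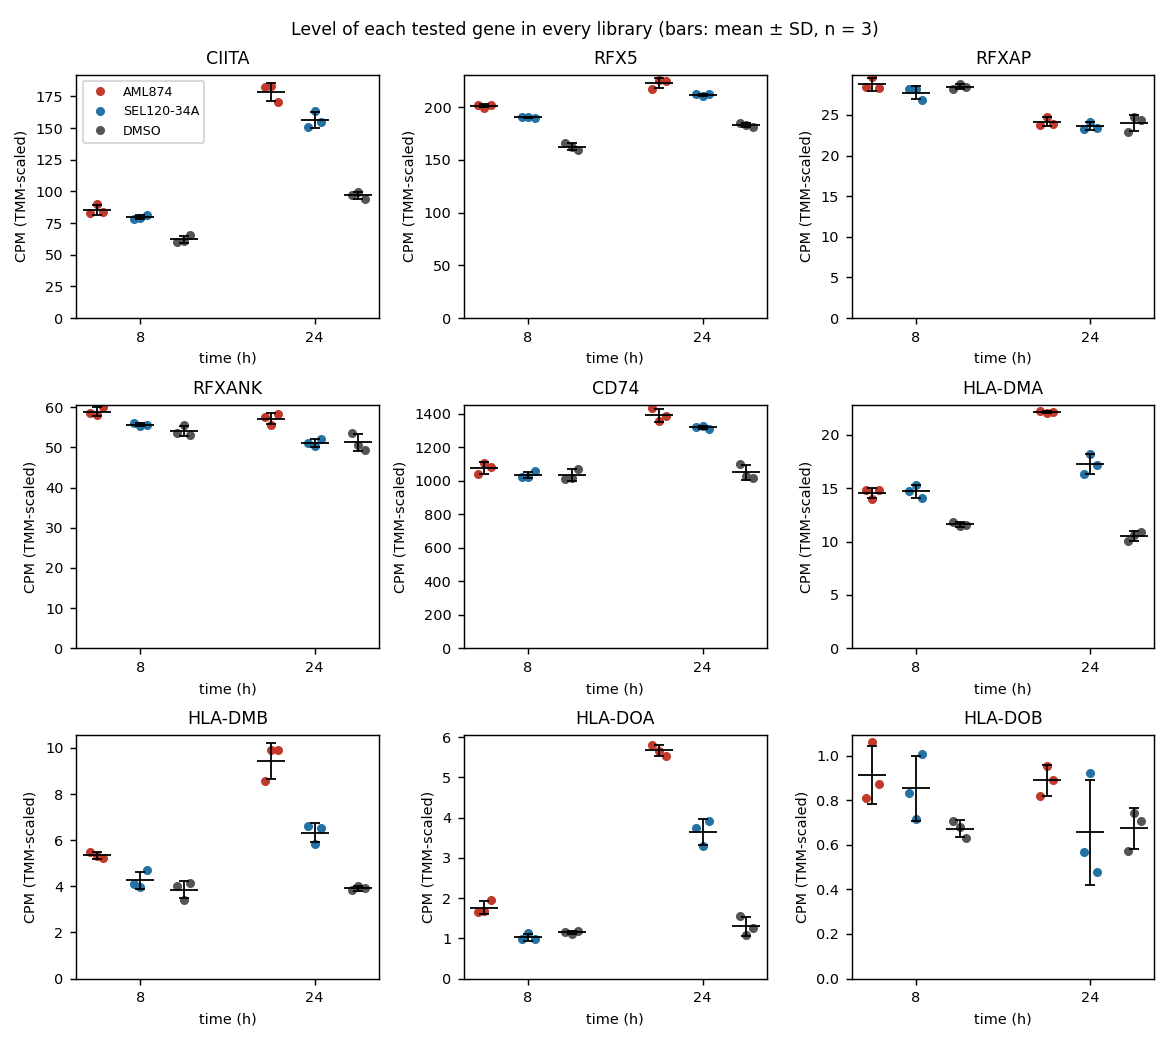
TMM-scaled CPM of the 9 tested genes in each of the 18 libraries, with axes from 0. Points are libraries, colours are agents, and bars are the mean ± SD of 3 libraries. CIITA separates all 6 groups, CD74 with either compound lies above DMSO at 24 h, and the RFXAP libraries of the 3 agents overlap at 24 h.

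CD74, which chaperones new class II molecules to the endosome (chromosome 5, 150401637 to 150412929, minus strand), rose at 24 h and did not pass at 8 h. At 8 h it had 1039, 1106 and 1084 CPM with AML874 and 1022, 1025 and 1058 CPM with SEL120-34A, against 1013, 1018 and 1072 CPM with DMSO. At 24 h it had 1432, 1354 and 1384 CPM with AML874 and 1318, 1326 and 1310 CPM with SEL120-34A, against 1099.5, 1031 and 1019 CPM with DMSO. The 8 h groups overlapped, and at 24 h every library with a compound lay above every DMSO library. The log2 fold change at 24 h was 0.40 ± 0.03 with AML874 (adjusted p = 9.16e-14) and 0.33 ± 0.03 with SEL120-34A (adjusted p = 2.45e-11, both edgeR). At 8 h it was 0.06 ± 0.03 with AML874 (adjusted p = 0.105, edgeR) and 0.00 ± 0.03 with SEL120-34A (adjusted p = 0.979, edgeR). When library totals alone set the scale, both compounds passed at 8 h, AML874 at 0.10 (adjusted p = 0.0014) and SEL120-34A at 0.07 (adjusted p = 0.0343, both edgeR).

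HLA-DMA and HLA-DMB encode the 2 chains of HLA-DM, which releases CLIP and edits the bound peptide. They lie on chromosome 6, minus strand, at 32948613 to 32969094 and 32934629 to 32941070. The alpha chain, HLA-DMA, had 14.9, 14.0 and 14.8 CPM with AML874 and 14.8, 15.3 and 14.1 CPM with SEL120-34A at 8 h, against 11.9, 11.4 and 11.6 CPM with DMSO. At 24 h its values were 22.2, 22.0 and 22.1 CPM with AML874 and 16.3, 18.2 and 17.2 CPM with SEL120-34A, against 10.0, 10.6 and 10.9 CPM with DMSO. The 2 compounds overlapped at 8 h and separated at 24 h, and both stood above DMSO at each time. Its log2 fold change with AML874 was 0.33 ± 0.05 at 8 h and 1.07 ± 0.05 at 24 h, and with SEL120-34A 0.34 ± 0.05 at 8 h and 0.71 ± 0.05 at 24 h (edgeR, all 4 adjusted p at or below 1.09e-06).

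The beta chain, HLA-DMB, had 5.51, 5.30 and 5.23 CPM with AML874 and 4.09, 3.98 and 4.70 CPM with SEL120-34A at 8 h, against 4.02, 3.42 and 4.13 CPM with DMSO. At 24 h it had 8.55, 9.89 and 9.90 CPM with AML874 and 6.62, 5.85 and 6.52 CPM with SEL120-34A, against 3.82, 4.02 and 3.91 CPM with DMSO. SEL120-34A overlapped DMSO at 8 h, and the other groups were apart. With AML874 the log2 fold change was 0.48 ± 0.08 at 8 h and 1.27 ± 0.08 at 24 h (adjusted p of 1.09e-05 and 9.84e-16, edgeR). With SEL120-34A it was 0.15 ± 0.08 at 8 h (adjusted p = 0.157, edgeR) and 0.70 ± 0.08 at 24 h (adjusted p = 7.06e-09, edgeR). The 2 chains of HLA-DM thus both rose with AML874 at 8 h. With SEL120-34A at 8 h HLA-DMA passed and HLA-DMB did not, but HLA-DMB passed with library totals alone (0.21, adjusted p = 0.0394) and without the 4 libraries highest on the within-group axis (0.23, adjusted p = 0.0413, both edgeR). The annotated readthrough gene AL645941.2 covers 31.4% of the coding transcript of HLA-DMB and 14.5 to 15.9% of those of HLA-DMA, and RSEM's estimated counts were 153 to 172% of the STAR counts for HLA-DMB, so its level depends on the counting. The calls of both HLA-DM genes against DMSO were the same with RSEM's rounded counts.

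HLA-DOA, the alpha chain of the HLA-DM inhibitor HLA-DO (chromosome 6, 33004178 to 33009612, minus strand), had the largest fold change of the 9 tested genes with either compound at 24 h. At 8 h it had 1.65, 1.68 and 1.95 CPM with AML874 and 0.986, 1.13 and 0.972 CPM with SEL120-34A, against 1.16, 1.12 and 1.19 CPM with DMSO. At 24 h it had 5.81, 5.67 and 5.54 CPM with AML874 and 3.74, 3.29 and 3.92 CPM with SEL120-34A, against 1.55, 1.08 and 1.26 CPM with DMSO. In CPM every library with a compound lay above DMSO at 24 h, whereas at 8 h AML874 libraries lay above DMSO and SEL120-34A libraries overlapped it. In TPM the 8 h AML874 libraries, at 0.69 to 0.76, overlapped the DMSO libraries, at 0.45 to 0.75. The AML874 log2 fold change was 0.61 ± 0.12 at 8 h (adjusted p = 0.000111) and 2.13 ± 0.11 at 24 h (adjusted p = 5.08e-18, both edgeR), which is 4.37-fold at 24 h. For SEL120-34A it was -0.16 ± 0.13 at 8 h (adjusted p = 0.331, edgeR) and 1.50 ± 0.11 at 24 h (adjusted p = 1.94e-13, edgeR). These values rest on 106 to 766 reads a library.

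HLA-DOB, the beta chain (chromosome 6, 32812763 to 32820466, minus strand), passed in none of the comparisons with a compound. Its values at 8 h were 0.808, 1.06 and 0.871 CPM with AML874 and 0.833, 0.715 and 1.01 CPM with SEL120-34A, against 0.708, 0.679 and 0.632 CPM with DMSO. At 24 h they were 0.819, 0.956 and 0.892 CPM with AML874 and 0.566, 0.923 and 0.479 CPM with SEL120-34A, against 0.571, 0.744 and 0.706 CPM with DMSO. AML874 and DMSO libraries did not overlap at either time, but with 68 to 131 reads a library the SEs of 0.18 to 0.19 were large against log2 fold changes of 0.44 at 8 h (adjusted p = 0.0624, edgeR) and 0.40 at 24 h (adjusted p = 0.0756, edgeR). The transcripts of HLA-DOB share 41.9 to 43.7% of their bases with the readthrough gene AL669918.1, to which RSEM assigned 3.99 to 10.6 TPM. With RSEM's rounded estimated counts the AML874 fold changes of HLA-DOB were 0.72 at 8 h (adjusted p = 0.00277) and 0.62 at 24 h (adjusted p = 0.00769, both edgeR). At 8 h it also passed with library totals alone (0.49, adjusted p = 0.0405) and in a fit of the compared groups alone (0.44, adjusted p = 0.0324), and at 24 h without the 4 libraries highest on the within-group axis (0.45, adjusted p = 0.0457, all edgeR).

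IFI30, the thiol reductase that opens disulfide bonds of endocytosed proteins (chromosome 19, 18173162 to 18178117, plus strand), was near 0 in the counts. It had 0 to 4 reads a library, under or close to the 0.0211 to 0.0303 CPM that a count of 0 allows (3 reads, counting error only). Its coding transcript shares 997 of 1134 bases, 87.9%, with the readthrough gene AC007192.1 on the same strand, and gene counts from STAR leave out a read that falls on both. RSEM gave IFI30 0 to 0.08 TPM and the readthrough gene 1.71 to 3.59 TPM. The counts therefore cannot tell a silent IFI30 from one whose reads were left unassigned.

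Set together, 6 of the 9 tested genes rose with AML874 at 8 h and none fell, where 19.7% of all tested genes rose and 19.9% fell, and the median log2 fold change was 0.33 against 0.00 for all genes. SEL120-34A at 8 h had 3 that rose (CIITA, RFX5 and HLA-DMA) where 22.4% of all genes rose and 22.6% fell, so that this count lies close to the background, with a median of 0.15 against 0.00. At 24 h 7 rose with AML874 where 23.1% of all genes rose and 23.7% fell (median 0.41 against 0.00), and 6 rose with SEL120-34A where 19.1% of all genes rose and 18.6% fell (median 0.33 against 0.01). None of the 9 fell in any of the 4 comparisons. AML874 and SEL120-34A share their DMSO libraries at each time, so these counts are not independent. When library totals alone set the scale, SEL120-34A at 8 h had 6 genes that rose, where 29.7% of all genes did. That scaling moved the median of all genes by 0.066 and the share of calls that were higher to 66.5%, against 49.8% with TMM scaling. For AML874 at 8 h that share was 63.5%, against 49.8% with TMM.

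**Figure D3:**
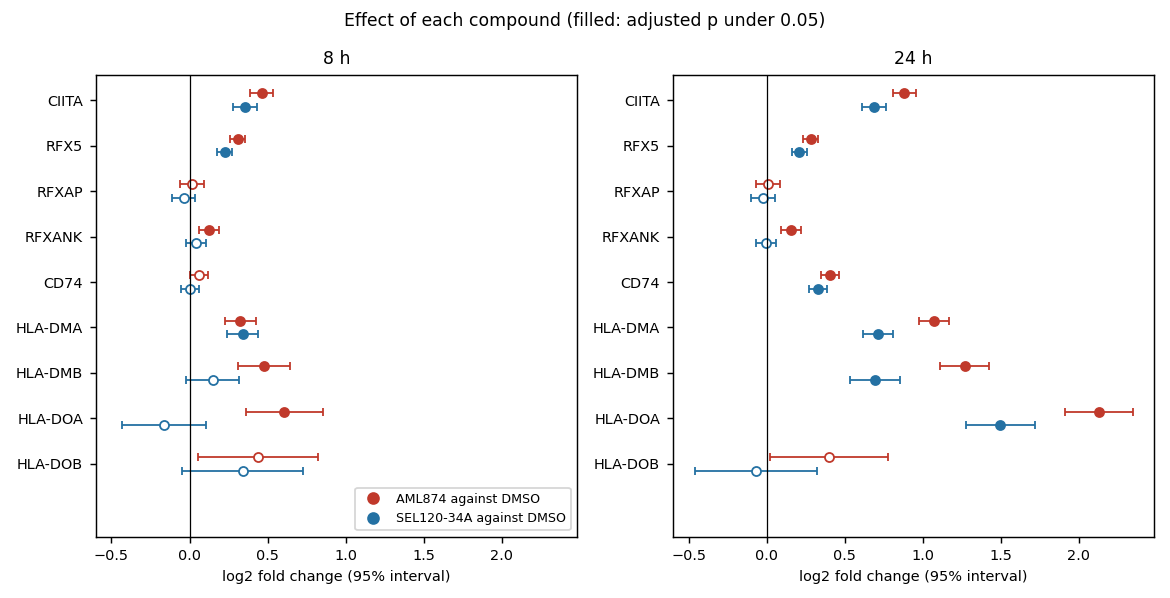
Log2 fold change against DMSO with its 95% interval for the 9 tested genes, at 8 h and 24 h. Filled points passed an adjusted p of 0.05. The fold changes of CD74, HLA-DMA, HLA-DMB and HLA-DOA lie further from 0 at 24 h than at 8 h for both compounds, and those of RFX5 lie between 0.21 and 0.31 in all 4 comparisons.

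The fold changes differed between the times. Testing the 24 h effect minus the 8 h effect found 5 genes with a larger rise at 24 h for AML874, where 11.1% of all genes passed in that direction, and the same 5 genes for SEL120-34A, where 14.2% did: CIITA, CD74, HLA-DMA, HLA-DMB and HLA-DOA. No member passed in the other direction, where 12.5% of all genes did for AML874 and 13.0% for SEL120-34A. Of the calls over all genes, 47.1% were higher for AML874 and 52.2% for SEL120-34A. When library totals alone set the scale, 30.7% were higher for AML874 and 29.1% for SEL120-34A, and the 5 members passed under either scaling. Of the 5, HLA-DOA had the largest difference with both compounds. For HLA-DOA the difference was 1.52 ± 0.16 with AML874 and 1.66 ± 0.17 with SEL120-34A, and for CIITA it was 0.42 ± 0.05 with AML874 and 0.33 ± 0.05 with SEL120-34A. In contrast, the RFX5 differences of -0.03 ± 0.03 for AML874 and -0.02 ± 0.03 for SEL120-34A did not pass (adjusted p of 0.647 and 0.765, edgeR), with 95% intervals from -0.09 to 0.04 and from -0.08 to 0.05. With library totals alone, RFX5 (-0.09, adjusted p = 0.0279) and RFXANK (-0.12, adjusted p = 0.0311, both edgeR) had a smaller SEL120-34A effect at 24 h than at 8 h. Without SEL120-34A 24 h replicate 2, the HLA-DOB difference for SEL120-34A also passed, at -0.71 (adjusted p = 0.0397, edgeR).

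The comparison of the compounds with each other asks whether their effects on these genes differ in size, and the labels give no dose to match them by. At 8 h 5 of the 9 genes were higher with AML874 than with SEL120-34A, where 16.0% of all genes were, and at 24 h 6 were, where 8.00% of all genes were. None was lower at either time, where 15.2% of all genes were lower at 8 h and 11.6% at 24 h. HLA-DOA was 0.77 ± 0.12 higher on the log2 scale at 8 h and 0.63 ± 0.10 higher at 24 h (adjusted p of 6.75e-06 and 8.15e-06, edgeR), and HLA-DMB was 0.33 ± 0.08 higher at 8 h and 0.57 ± 0.07 higher at 24 h (adjusted p of 0.00152 and 5.58e-07, edgeR). For HLA-DMA the difference was 0.36 ± 0.05 at 24 h (adjusted p = 3.86e-07) but -0.01 ± 0.05 at 8 h (adjusted p = 0.867, both edgeR), with a 95% interval there from -0.11 to 0.08. CIITA was higher by 0.19 ± 0.04 at 24 h (adjusted p = 0.00024, edgeR).

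CD74 differed between the compounds by 0.08 ± 0.03 at 24 h (adjusted p = 0.0546, edgeR), with a 95% interval from 0.02 to 0.13, and passed without AML874 24 h replicate 2 (0.10, adjusted p = 0.0324, edgeR). The 8 h calls of CIITA (0.10 ± 0.04, adjusted p = 0.0334) and RFXANK (0.08 ± 0.03, adjusted p = 0.0428, both edgeR) were lost in several refits. CIITA did not pass without AML874 8 h replicate 2 (0.06, adjusted p = 0.241), without SEL120-34A 8 h replicate 1 (adjusted p = 0.131) or without SEL120-34A 8 h replicate 2 (adjusted p = 0.107, all edgeR), and RFXANK did not pass when any 1 of the 6 libraries was left out. RFX5 at 24 h (0.07 ± 0.02, adjusted p = 0.0247, edgeR) did not pass without any 1 of 5 of the 6 libraries, the exception being AML874 24 h replicate 1. HLA-DOB at 24 h turned on 1 library: it was 0.47 ± 0.19 higher with AML874 (adjusted p = 0.0798, edgeR), and 0.77 higher (adjusted p = 0.00389, edgeR) without SEL120-34A 24 h replicate 2.

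**Figure D4:**
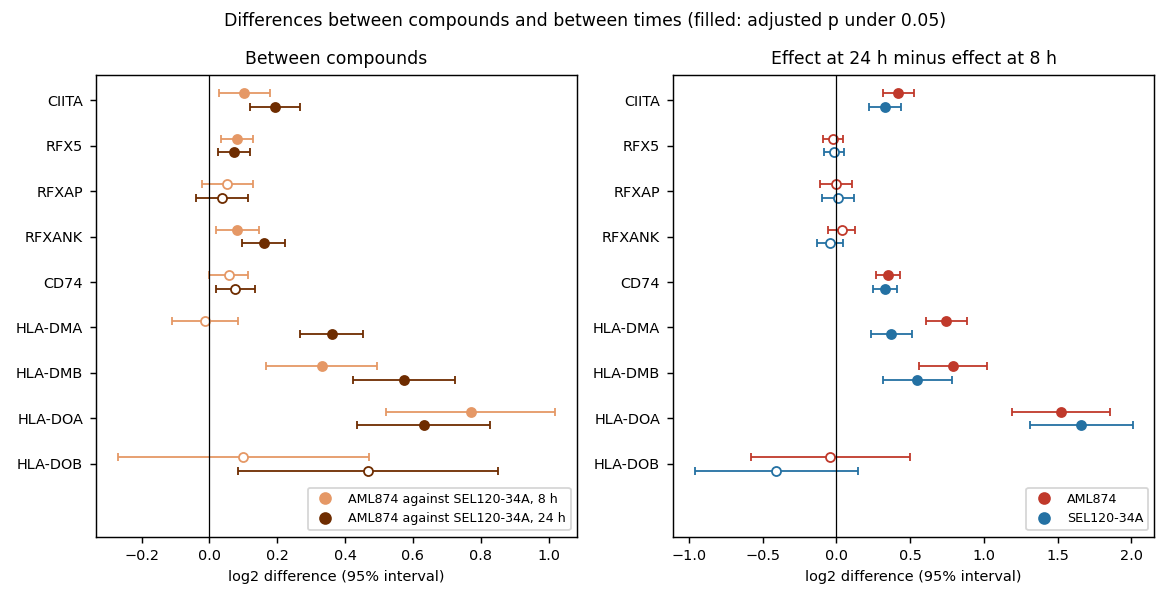
Left, AML874 against SEL120-34A at 8 h and 24 h; right, the effect against DMSO at 24 h minus that at 8 h for each compound. Points are log2 differences with 95% intervals, filled where the adjusted p is under 0.05. HLA-DMB and HLA-DOA lie above 0 in both panels, and RFXAP lies across 0 in both.

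The DMSO libraries give the change with time in the absence of a compound. CIITA had 96.9, 99.9 and 94.3 CPM at 24 h, against 60.2, 60.7 and 65.5 CPM at 8 h, a log2 fold change of 0.64 ± 0.04 (adjusted p = 9.71e-14, edgeR). RFX5 was also higher at 24 h, by 0.17 ± 0.02 (adjusted p = 2.24e-07, edgeR), so 2 of the 9 genes rose where 19.8% of all genes did. Of the calls over all genes 46.7% were higher, and 57.1% with library totals alone. The loading genes did not follow CIITA: CD74 changed by 0.02 ± 0.03 (adjusted p = 0.585), HLA-DMB by 0.03 ± 0.08 (adjusted p = 0.825) and HLA-DOA by 0.17 ± 0.12 (adjusted p = 0.296, all edgeR). RFXAP was lower at 24 h, with 22.8, 24.7 and 24.4 CPM at 24 h against 28.2, 28.8 and 28.4 CPM at 8 h, a log2 change of -0.25 ± 0.04 (adjusted p = 1.29e-06, edgeR). With RFXANK (-0.08 ± 0.03, adjusted p = 0.0418) and HLA-DMA (-0.14 ± 0.05, adjusted p = 0.0176, both edgeR) 3 of 9 genes fell where 22.7% of all genes did. RFXANK did not pass without any 1 of 5 of the 6 DMSO libraries, DMSO 24 h replicate 1 being the exception, and HLA-DMA did not pass without any 1 of 5, DMSO 24 h replicate 3 being the exception.

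AML874 libraries at 8 h had less CIITA transcript than DMSO libraries at 24 h, yet more of both HLA-DM chains. AML874 at 8 h averaged 85.5 ± 3.8 CPM of CIITA (SD, n = 3) and DMSO at 24 h averaged 97.1 ± 2.8 CPM. HLA-DMA averaged 14.6 ± 0.5 CPM in the AML874 libraries at 8 h and 10.5 ± 0.4 CPM in the DMSO libraries at 24 h, and HLA-DMB averaged 5.35 ± 0.14 CPM with AML874 at 8 h and 3.91 ± 0.10 CPM with DMSO at 24 h. The ranges of both HLA-DM chains did not overlap between these groups, which differ in both agent and time and were not tested against each other. Between the same groups HLA-DOA was also apart (1.65 to 1.95 against 1.08 to 1.55 CPM), but CD74 overlapped (1039 to 1106 against 1019 to 1099.5 CPM). SEL120-34A at 8 h had 78.5 to 81.5 CPM of CIITA. Its HLA-DMA (14.1 to 15.3 CPM) lay above DMSO at 24 h (10.0 to 10.9 CPM), but its HLA-DMB (3.98 to 4.70 CPM) overlapped DMSO at 24 h (3.82 to 4.02 CPM).

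**Figure D5:**
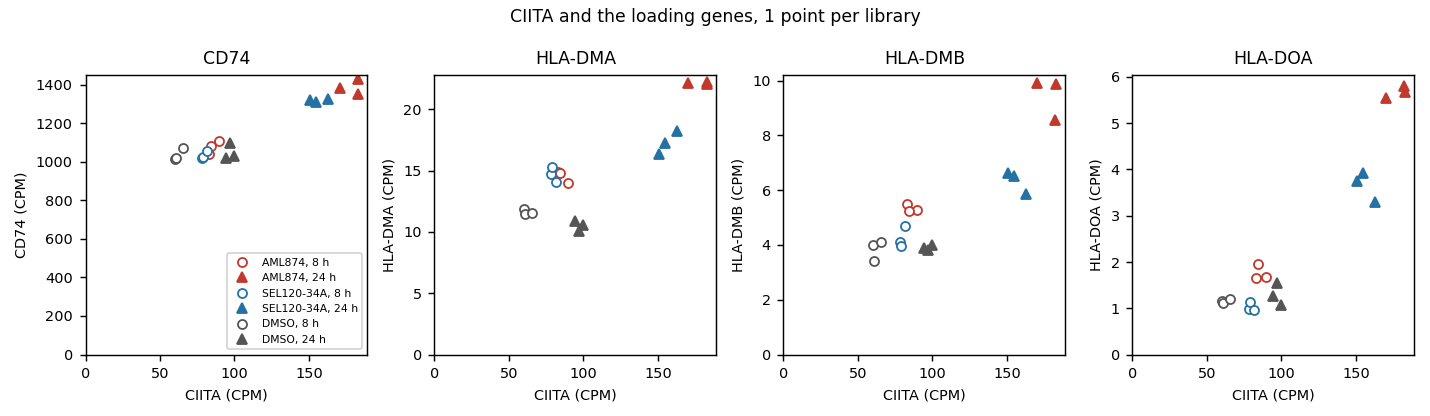
CPM of CD74, HLA-DMA, HLA-DMB and HLA-DOA against CPM of CIITA, 1 point per library, open for 8 h and filled for 24 h. DMSO libraries at 24 h lie to the right of those at 8 h, at about the same height for CD74, HLA-DMB and HLA-DOA and lower for HLA-DMA. The compound libraries at 24 h lie furthest right and highest.

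The ratio of CD74 to the class II alpha chain HLA-DRA, taken within each library from TPM, was lower with AML874. At 8 h the ratio averaged 3.31 ± 0.09 in AML874 libraries and 3.51 ± 0.07 in SEL120-34A libraries, against 3.54 ± 0.07 with DMSO (SD, n = 3 each). At 24 h it averaged 3.07 ± 0.11 in AML874 libraries and 3.36 ± 0.03 in SEL120-34A libraries, against 3.79 ± 0.02 with DMSO. Over both times the ratio with AML874 was lower by a log2 difference of -0.20 (exact permutation test within times, two-sided, p = 0.005, the smallest that 400 permutations can give; adjusted p = 0.03 over 6 ratio tests). With SEL120-34A the difference was -0.09 (exact permutation p = 0.035, adjusted p = 0.105), at -0.01 at 8 h and -0.17 at 24 h. No time was tested alone.

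HLA-DO balances HLA-DM, and the ratio of their alpha chains depended on the values it was taken from. With AML874 the HLA-DOA to HLA-DMA ratio of TPM differed from DMSO by -0.10 at 8 h and 0.77 at 24 h on the log2 scale, and with SEL120-34A by -0.89 at 8 h and 0.64 at 24 h. At 8 h the ratio of 0.028 to 0.031 in AML874 libraries overlapped that of 0.024 to 0.040 in DMSO libraries, and no time was tested alone. Averaged over both times, neither passed (exact permutation test, adjusted p of 0.2 for AML874 and 0.675 for SEL120-34A). From the STAR counts the AML874 difference was 0.28 at 8 h and 1.07 at 24 h, with a mean of 0.68 and an exact permutation adjusted p of 0.015. From STAR counts the SEL120-34A difference was -0.51 at 8 h and 0.79 at 24 h. The ratio of the beta chains, HLA-DOB to HLA-DMB, differed in TPM by 0.36 at 8 h and -0.58 at 24 h with AML874, and by 0.34 at 8 h and -0.72 at 24 h with SEL120-34A. The averages of -0.11 for AML874 and -0.19 for SEL120-34A did not pass (exact permutation test, adjusted p of 0.675 and 0.638). From STAR counts the averages were -0.45 for AML874 and -0.30 for SEL120-34A (exact permutation test, adjusted p of 0.0675 and 0.372).

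The classical class II chains, which the loading genes serve, rose mainly at 24 h. Of 9 tested chain genes, 8 rose with AML874 at 24 h and none fell, where 23.1% of all genes rose, with a median log2 fold change of 0.80, and HLA-DPB1 (0.80 ± 0.03), HLA-DPA1 (0.78 ± 0.03), HLA-DRA (0.70 ± 0.03) and HLA-DRB1 (0.40 ± 0.04) had the smallest p. With SEL120-34A at 24 h 6 rose and none fell, where 19.1% of all genes rose, with a median of 0.50. At 8 h 3 rose with AML874, where 19.7% of all genes did, namely HLA-DPA1 (0.24 ± 0.03), HLA-DPB1 (0.21 ± 0.03) and HLA-DRA (0.14 ± 0.03). With SEL120-34A at 8 h HLA-DPB1 (0.08 ± 0.03, adjusted p = 0.0218) and HLA-DPA1 (0.07 ± 0.03, adjusted p = 0.0295, both edgeR) passed, where 22.4% of all genes rose, and the count of 2 fell to 0 or 1 when any 1 of the 6 libraries was left out. In DMSO libraries 6 of the 9 chain genes were lower at 24 h than at 8 h, where 22.7% of all genes were, and 3 were without DMSO 8 h replicate 3. HLA-DRB1, HLA-DRB5 and the HLA-DQ genes have near-identical copies, and their counts are uncertain for that reason.

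Many genes for the factors that share class II promoters with RFX and CIITA fell. Of 12 tested genes for NF-Y, CREB family factors and chromatin cofactors, none rose in any of the 4 comparisons with DMSO. The cofactors are not all activators, since HDAC2 is a histone deacetylase. At 8 h 10 fell with AML874, where 19.9% of all genes did, and 10 with SEL120-34A, where 22.6% did. At 24 h 10 fell with AML874, where 23.7% of all genes did, and 5 with SEL120-34A, where 18.6% did. The acetyltransferase genes EP300 and KAT2B fell by 0.28 ± 0.03 and 0.48 ± 0.04 with AML874 at 8 h, and by 0.31 ± 0.03 and 0.59 ± 0.04 at 24 h. With SEL120-34A the NF-Y subunit gene NFYA fell by 0.40 ± 0.03 at 8 h and 0.20 ± 0.03 at 24 h. The median log2 fold change for AML874 was -0.14 at 8 h and -0.16 at 24 h, and for SEL120-34A it was -0.21 at 8 h and -0.05 at 24 h.

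Genes on the interferon-gamma route to CIITA were mixed. With AML874 at 24 h 5 of 13 rose and 3 fell, where 23.1% of all genes rose and 23.7% fell, and IRF1, an interferon-induced activator of CIITA, rose by 1.03 ± 0.03, IRF8, a myeloid and B cell factor, by 0.66 ± 0.02, the receptor chain gene IFNGR1 by 0.50 ± 0.03 and the kinase gene JAK2 by 0.38 ± 0.03. With SEL120-34A at 24 h 6 rose and 3 fell, where 19.1% of all genes rose and 18.6% fell, with IRF1 at 0.83 ± 0.03 and IRF8 at 0.53 ± 0.02. At 8 h 4 rose and 4 fell with AML874, where 19.7% of all genes rose and 19.9% fell. With SEL120-34A at 8 h 3 rose and 3 fell, where 22.4% of all genes rose and 22.6% fell. IRF8 at 8 h was at 0.40 ± 0.03 (AML874) and 0.34 ± 0.03 (SEL120-34A). The myeloid factor gene SPI1 was at -0.22 ± 0.03 (AML874) and -0.25 ± 0.03 (SEL120-34A). IRF1 had already risen at 8 h, by 0.19 ± 0.03 with AML874 and 0.37 ± 0.03 with SEL120-34A. IFNGR1 had risen at 8 h by 0.23 ± 0.03 with AML874 and 0.45 ± 0.03 with SEL120-34A. The median of the 13 genes stayed between -0.05 and 0.07 in the 4 comparisons.

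Downstream of transcription, the proteases that trim CD74 and their inhibitors mostly fell or did not pass. Of 12 genes, 8 fell and none rose with AML874 at 8 h, 4 fell and none rose with SEL120-34A at 8 h, 5 fell and 4 rose with AML874 at 24 h, and 5 fell and 1 rose with SEL120-34A at 24 h. Of all genes, AML874 lowered 19.9% at 8 h and 23.7% at 24 h, while SEL120-34A lowered 22.6% at 8 h and 18.6% at 24 h. The 5 that fell with SEL120-34A at 24 h were 3 without DMSO 24 h replicate 1. SPPL2A, which cleaves the membrane stub of CD74, fell in all 4 comparisons, by 0.42 ± 0.03 at 8 h and 0.25 ± 0.03 at 24 h with AML874, and by 0.31 ± 0.03 at 8 h and 0.17 ± 0.03 at 24 h with SEL120-34A. CTSS, the protease for the late steps of CD74 trimming, fell by 0.18 ± 0.03 with AML874 at 8 h and by 0.12 ± 0.03 with SEL120-34A at 24 h. It was higher with AML874 at 24 h, at a log2 fold change of 0.07 ± 0.03 (edgeR adjusted p = 0.0477), and did not pass with SEL120-34A at 8 h (-0.02 ± 0.03). Of 10 tested genes for trafficking and turnover of class II, 1 rose and 3 fell with AML874 at 8 h, 3 rose and 3 fell with SEL120-34A at 8 h, 2 rose and 4 fell with AML874 at 24 h, 1 of those 2 without DMSO 24 h replicate 3, and 3 rose and 4 fell with SEL120-34A at 24 h. Of all genes, AML874 raised 19.7% at 8 h and 23.1% at 24 h, while SEL120-34A raised 22.4% at 8 h and 19.1% at 24 h. The tetraspanin gene CD63 fell by 0.27 ± 0.03 with each compound at 24 h.

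Markers of the line and of other cell types moved beside these genes at 24 h. Of 7 tested myeloid genes 6 fell with AML874, where 23.7% of all genes did, and 5 fell with SEL120-34A, where 18.6% did. MPO, a granule enzyme, was at -2.87 ± 0.07 with AML874 and -1.53 ± 0.06 with SEL120-34A. CD33 was at -0.57 ± 0.03 with AML874 and -0.47 ± 0.03 with SEL120-34A, while PTPRC rose with both. The summed level of the 9 listed was 764 to 774 CPM with AML874 and 819.8 to 827 CPM with SEL120-34A, against 877 to 916 CPM with DMSO. The summed level of 8 monocyte genes, carried by LYZ, was 169 to 178 CPM with AML874 and 199.8 to 209 CPM with SEL120-34A, against 258 to 268 CPM with DMSO, while VCAN of the same list rose by 1.39 ± 0.14 with AML874 and 1.43 ± 0.14 with SEL120-34A, and FCGR3A and FCN1 stayed under 0.1 CPM everywhere.

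For 8 B cell genes the sum at 24 h was 1.13 to 1.29 CPM with AML874 and 0.812 to 1.04 CPM with SEL120-34A, against 1.21 to 1.64 CPM with DMSO. Of the 4 tested, CD79A fell with both compounds, BLNK rose by 2.82 ± 0.33 with AML874 and 1.81 ± 0.36 with SEL120-34A, and PAX5 rose by 2.24 ± 0.60 with AML874 but did not pass with SEL120-34A (0.55 ± 0.71). BLNK and PAX5 stayed at or below 0.612 CPM in every library. For 8 conventional dendritic cell genes the sum was 3.86 to 4.73 CPM with AML874 and 4.07 to 4.65 CPM with SEL120-34A, against 4.63 to 5.30 CPM with DMSO. BATF3 of this list fell with both compounds, while CLEC10A rose by 1.98 ± 0.29 with AML874 and 1.52 ± 0.30 with SEL120-34A and CLEC9A by 1.60 ± 0.53 with AML874 and 2.91 ± 0.48 with SEL120-34A, both at or below 0.479 CPM in every library. For 6 T cell genes, carried by TRAC, it was 5.83 to 8.00 CPM with AML874 and 6.97 to 7.49 CPM with SEL120-34A, against 3.32 to 4.95 CPM with DMSO. For 7 plasmacytoid dendritic cell genes it was 33.0 to 33.9 CPM with AML874 and 35.4 to 38.5 CPM with SEL120-34A, against 36.1 to 37.8 CPM with DMSO. CLEC4C, IL3RA, LILRA4, GZMB and JCHAIN of this list stayed under 0.1 CPM everywhere. IL3RA had 0 CPM in every library, and whether it was silent or its reads were left unassigned was not tested. Of 21 tested targets of hypoxia-inducible factor, 10 fell with AML874 at 24 h, where 23.7% of all genes did, 8 fell with SEL120-34A at 24 h, where 18.6% did, and none rose. The part of these shifts in the class II results was not tested.

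Over the 18 libraries the genes whose log2 CPM tracked CIITA most closely, among 9926 protein-coding genes with a mean of at least 5 CPM, were GATM (Pearson r = 0.989), PLAC8 (0.989), UBASH3B (0.989), AFF3 (0.989) and JARID2 (0.988). For CD74 they were ECH1 (0.984), TRIM25 (0.974), TRAF5 (0.972), PSME1 (0.972) and RNASEH2B (0.966). Among the members, CIITA had an r of 0.937 with CD74, 0.920 with HLA-DOA, 0.874 with RFX5, 0.862 with HLA-DMB, 0.778 with HLA-DMA, 0.064 with HLA-DOB, -0.111 with RFXANK and -0.785 with RFXAP. These describe likeness over libraries that share compounds and times.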

How the data were processed

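Libraries were aligned with STAR 2.7.1a and quantified with RSEM 1.3.2 on GRCh38, per the submitters' processing notes; the annotation release is not given in the sources used here. The authors deposited 2 files a library. The first holds STAR gene counts for 3 strand settings, of which the reverse-strand column was used, since the forward column held 6.27 to 6.66% of its reads. The second, also deposited by the authors, holds RSEM's expected counts and TPM values. The summary lines of unassigned reads, 21.9 to 25.5% of the total, were left out. Gene identifiers were matched to GENCODE release 29, which gave coordinates and transcripts. Here edgeR 4.0.16 (R 4.3.3) fitted 1 quasi-likelihood model of 6 groups after filterByExpr and TMM scaling, and p-values were Benjamini-Hochberg adjusted over 20920 genes, with calls under 0.05. CPM used TMM-scaled library sizes, and log2 fold changes carry SEs from the quasi-likelihood F. Ratios were taken from TPM and tested by exact permutation within times. Motifs were searched on both strands of RefSeq promoter windows. The CIITA promoter was not analysed here, and 1 marker gene is not reported here. The steps were tested on simulated counts. Replicate pairs differed by more than sampling noise (chi-square per degree of freedom 2.91 to 11.0).

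The members and gene lists were chosen with earlier results of these data known. Every member is named, with up to 4 genes of smallest p from each other list and the 5 genes most like CIITA and CD74. PTPRC, CTSS with AML874 at 24 h, and IRF1 with AML874 at 8 h were added after their values were seen. Alternatives were median-of-ratios and library-total scaling, 2 other filters, a replicate block, the unstranded column, rounded RSEM expected counts, a fit of the compared groups alone, DESeq2 1.42.0, and leaving out each library. Leaving out 4 libraries highest on the main axis of within-group variation was added after seeing the data. The 95% intervals of fold changes come from the edgeR fit and include the spread between libraries. Floors for a count of 0 cover counting error only, and PCR copies are not separate molecules.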

Additional observations from a re-analysis of the deposited data

Results flagged for a closer look

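For 5 genes, the effect of each compound at 24 h differed from its effect at 8 h by a test of that difference itself, the interaction of compound and time in edgeR's quasi-likelihood model. With AML874 the 24 h effect exceeded the 8 h effect on the log2 scale by 0.42 for CIITA (adjusted p = 5.76e-07), 0.35 for CD74 (adjusted p = 5.11e-08), 0.75 for HLA-DMA (adjusted p = 1.83e-10), 0.79 for HLA-DMB (adjusted p = 1.62e-06) and 1.52 for HLA-DOA (adjusted p = 7.19e-09). With SEL120-34A the excess was 0.33 for CIITA (adjusted p = 1.79e-05), 0.33 for CD74 (adjusted p = 1.12e-07), 0.37 for HLA-DMA (adjusted p = 6.19e-05), 0.55 for HLA-DMB (adjusted p = 0.000365) and 1.66 for HLA-DOA (adjusted p = 2.47e-09). All 3 libraries of each compound lay above all 3 DMSO libraries at 24 h for each of the 5 genes. HLA-DOA with SEL120-34A is the one case in which the 8 h estimate lay below 0.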

How the results depend on the processing

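Among refits of single members, 1330 kept their direction and side of the threshold, 24 passed newly, 41 no longer passed and none of the called values reversed. Counts of members called moved by over 1.5 times in few settings. With library totals alone they were 6 for SEL120-34A against DMSO at 8 h (3 with TMM), 3 for AML874 against SEL120-34A at 8 h (5) and 3 for DMSO at 24 h against 8 h (5), and with RSEM expected counts 3 for AML874 against SEL120-34A at 8 h. With library totals 29.7%, 13.7% and 24% of all genes were called higher in the first 3 of these comparisons. Leaving out each library gave 3 to 5 for AML874 against SEL120-34A at 8 h and 3 to 4 for DMSO at 24 h against 8 h. The HLA-DOA to HLA-DMA difference from STAR counts was 0.68 with AML874, which then passed, and 0.14 with SEL120-34A, where TPM gave -0.13; the cause was not tested. The replicate numbers do not pair the libraries: same-numbered deviations correlated at -0.54 to 0.50 over 45 pairs of libraries, 10 of them over 0.1, and the best match in another group had the same number in 24 of 90 cases. In the fit with the replicate block 4 members passed for AML874 against SEL120-34A at 8 h, and all other counts of members were the same as without it. With the replicate block the CD74 to HLA-DRA difference with AML874 was -0.20 with an adjusted p of 0.188 (exact sign flips); its unadjusted p is the smallest that sign flips of 6 pairs can give. Leaving out the 4 libraries with the highest scores on the main within-group axis (35.1% of variance), on which targets of hypoxia-inducible factor vary, gave 7, 4, 8 and 6 members called for AML874 at 8 h, SEL120-34A at 8 h, AML874 at 24 h and SEL120-34A at 24 h. Except for library totals, the share of all genes called in these refits is not given here. Their counts therefore show how the calls moved and have no background beside them. Few assigned reads limit HLA-DOB and IFI30, which both share transcript bases with readthrough genes.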
